A study of Homo sapiens with 6 samples.

Results

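KHM-5M is an established line of human anaplastic thyroid cancer cells. In RNA-seq libraries of these cells, the transcripts of 10 genes of the NF-kappaB system were followed. The genes were taken by their symbols, 4 subunits (NFKB1, NFKB2, RELA and RELB), 3 IkappaB proteins (NFKBIA, NFKBIE and NFKBIZ), 2 feedback regulators (TNFAIP3 and BIRC3) and 1 adhesion molecule that is a target of the pathway (ICAM1). All 10 were found among the 17687 genes of the deposited table, and all 10 were among the 14005 genes that passed the filter on low counts. Control cells received PBS, the SS group received sodium selenite, a selenium salt, and the SS+NAC group received sodium selenite together with N-acetylcysteine, a thiol antioxidant. Each group had 2 libraries, which the study's methods call biological replicates. The labels give neither the dose nor the exposure time, and cells given NAC alone were not analysed here, so that a difference between SS+NAC and control holds both agents, whose parts cannot be told apart. The expected counts, which are estimates of the reads per gene, summed to 17645545 and 22016655 in control, 23493415 and 23810056 in SS, and 23682740 and 22617180 in SS+NAC.

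NF-kappaB factors are dimers of proteins with a Rel homology domain. In resting cells IkappaB proteins hold them in the cytoplasm, until the IkappaB kinase (IKK) complex marks the inhibitor for degradation and the dimers enter the nucleus. Among the genes they then induce are those of their own inhibitors and precursors, so that transcripts such as NFKBIA and TNFAIP3 are widely used readouts of the pathway, and NF-kappaB activity has been associated with thyroid cancers, anaplastic ones included.

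The marker genes were read first, in TPM, a level that accounts for gene length. Of 7 thyroid follicular markers 5 were listed, and their sum lay between 105 and 136 TPM in the 6 libraries. Nearly all of it was PAX8, a thyroid transcription factor, at 104 to 134 TPM. The differentiation genes TG and SLC5A5 stayed at or under 0.3 and 0.69 TPM, NKX2-1 at or under 0.2 TPM and FOXE1 at or under 1.59 TPM. The keratins KRT8 and KRT18 were at 977 to 1400 and 731 to 1100 TPM, and the epithelial cadherin CDH1 was at or under 0.29 TPM. Of the mesenchymal markers, vimentin (VIM) was at 5740 to 6620 TPM, and the cadherin CDH2 was at 48.2 and 52.3 TPM in control, 35.2 and 30.9 in SS and 51.6 and 53.7 in SS+NAC. Fibronectin (FN1) was at 1130 and 1110 TPM in control, 889 and 661 in SS and 1400 and 1810 in SS+NAC. For leukocytes 6 of 7 markers were listed, with a sum of 3.09 and 3.31 TPM in control, 4.43 and 3.65 in SS and 3.18 and 4.99 in SS+NAC. CD14 and LYZ gave most of it, at up to 2.14 and 1.91 TPM, while the pan-leukocyte gene PTPRC was at or under 0.77 TPM and CD3E at or under 0.06 TPM. The 4 endothelial markers summed to at most 0.92 TPM. Of 4 fibroblast markers, which summed to 170 to 278 TPM, COL1A1 gave most, at 216 and 215 TPM in control, 179 and 167 in SS and 273 and 251 in SS+NAC. PDGFRB was at 3.42 to 5.74 TPM, and COL1A2 and DCN were at or under 0.04 and 0.19 TPM.

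Between SS and control, 5 of the 10 NF-kappaB genes were called, with edgeR's quasi-likelihood test and the limit of 0.05 on the adjusted p, and all 5 were higher in SS. These were NFKBIA, ICAM1, RELB, NFKBIE and NFKB2. Over all tested genes 40.0% were called, 18.6% as higher and 21.4% as lower, so that calls in themselves were common in this comparison. The median log2 fold change of the 10 genes was 0.33, beside 0.00 over all tested genes. Groups of bulk cells were compared, in which fewer cells of a kind and less RNA per cell cannot be told apart. An offset for gene length, described below, left 3 of the 10 genes called, all higher, beside 9.23% of all tested genes (4.19% as higher and 5.03% as lower). Without SS replicate 1 or either control library the count without the offset was lower, and so was the count over all tested genes. Ranges with 1 library left out are given below. On TPM limma also called 3, NFKBIA as higher and NFKB1 and RELA as lower, beside 712 of all tested genes as higher and 5240 as lower.

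Between SS+NAC and control 2 of the 10 genes were called, RELB and ICAM1, both higher in SS+NAC, where 2.01% of all tested genes were called and 1.36% as higher. The median of the 10 log2 fold changes was 0.47, beside 0.00 over all tested genes. This count rested on single libraries. In edgeR both calls were lost without control replicate 1 or control replicate 2, where the count over all tested genes also fell. The RELB call was lost without SS+NAC replicate 2 as well. Without SS+NAC replicate 1 calls rose among the 10 genes and over all tested genes. On all libraries the Wald test of DESeq2 called 2 of the 10, beside 176 genes as higher and 135 as lower. With limma on TPM the count was 0, with 5 at an unadjusted p under 0.05, beside 114 genes as higher and 26 as lower. The length offset left 1 of the 10, ICAM1, beside 2.01% of all tested genes (1.35% as higher and 0.664% as lower).

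Between SS and SS+NAC 3 of the 10 genes were called, NFKBIA as higher and NFKBIZ and NFKB1 as lower in SS. Of all tested genes 42.7% were called, 19.6% as higher and 23.1% as lower. The median of the 10 was -0.08, beside -0.03 over all tested genes. After the length offset edgeR called 0 of the 10, with 1 at an unadjusted p under 0.05, beside 14.4% of all tested genes (7.04% as higher and 7.38% as lower). The Wald test of DESeq2 called 0 of the 10, with 2 at an unadjusted p under 0.05, beside 2504 genes as higher and 2362 as lower. With limma on TPM 3 were called, which were NFKB1, RELA and NFKBIZ, all lower, and not NFKBIA (0.20, adjusted p = 0.461). On that scale 624 of all tested genes were called as higher and 6490 as lower. The edgeR count was lower without either SS library, either control library or SS+NAC replicate 2, and higher without SS+NAC replicate 1. The count over all tested genes moved in the same direction each time. The 3 comparisons share libraries pair by pair, so their values for a gene are given side by side below and are not independent of each other.

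**Figure D1:**
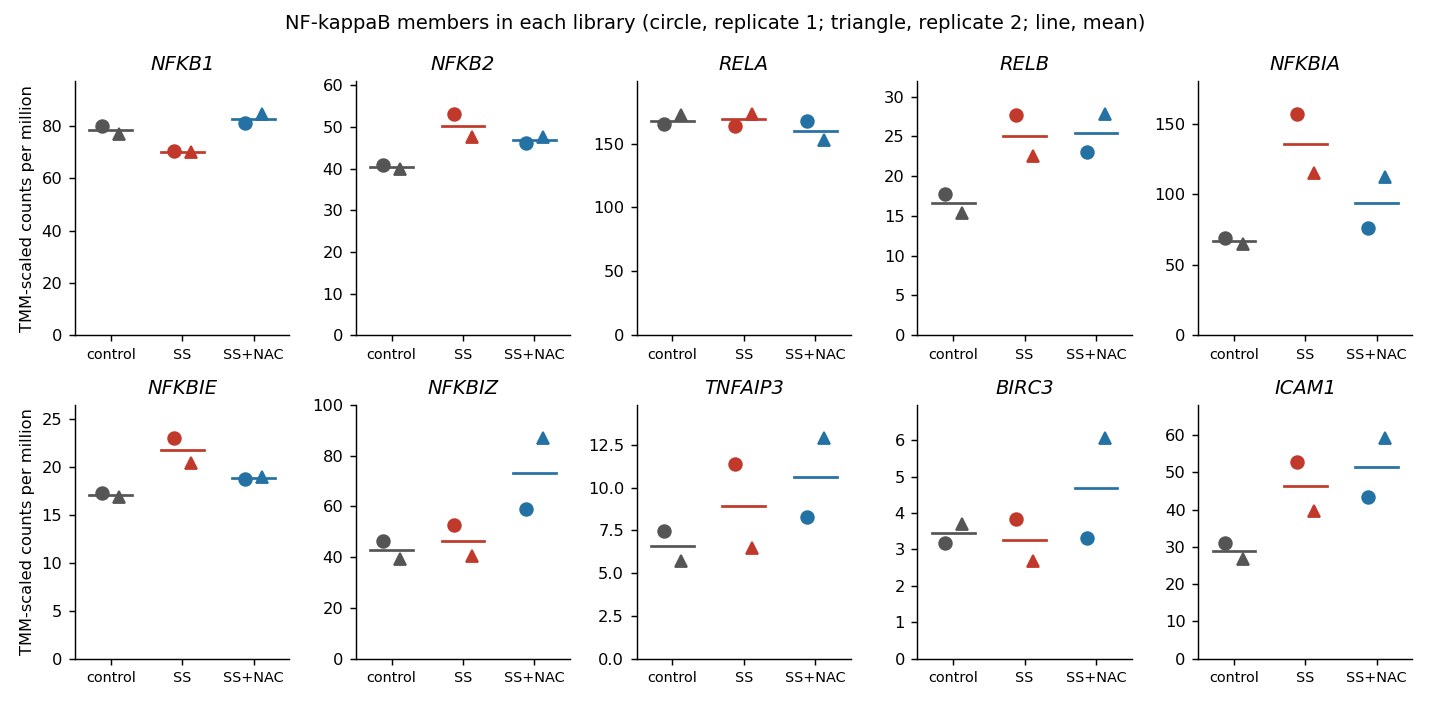
TMM-scaled CPM (vertical axis, from 0) of the 10 NF-kappaB genes in each library of control, SS and SS+NAC; circles are replicate 1, triangles replicate 2 and lines the mean of 2 libraries. For NFKBIA, RELB, ICAM1, NFKB2 and NFKBIE both SS libraries lie above both control libraries, and for NFKBIZ both SS+NAC libraries lie above the other 4. Of the 14005 tested genes, 5085 have both SS libraries above both control libraries.

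In the control cells RELA had the highest level of the 10 genes, with 128 ± 2.09 TPM (mean and SD, n = 2). It was followed by NFKBIA with 84.4 ± 5.52, NFKB1 with 39.1 ± 1.92, NFKB2 with 25.8 ± 0.474, NFKBIZ with 21.4 ± 2.85, ICAM1 with 17.4 ± 2.02, RELB with 14.4 ± 1.73, NFKBIE with 13.0 ± 0.495, TNFAIP3 with 2.77 ± 0.523 and BIRC3 with 0.995 ± 0.0495 TPM. The control values of RELB and NFKBIE overlapped, and NFKBIZ and ICAM1, as well as ICAM1 and RELB, lay apart by less than the sum of their SDs. In SS the order at the top was different, with NFKBIA at 172 and 114 TPM above RELA at 108 and 104 TPM. In SS+NAC these 2 genes overlapped, NFKBIA at 96.5 and 152 TPM and RELA at 128 and 125 TPM. BIRC3 remained the lowest in each group.

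The subunits are described first. NFKB1 (gene ID 4790, chromosome 4 from 102501329 to 102617302, plus strand, GENCODE release 29 on GRCh38) encodes p105, the precursor of p50. NFKB2 (gene ID 4791, chromosome 10 from 102394110 to 102402529, plus strand) encodes p100, the precursor of p52. RELA (gene ID 5970, chromosome 11 from 65653596 to 65663094, minus strand) encodes p65, the main activating subunit of the canonical pathway. RELB (gene ID 5971, chromosome 19 from 45001430 to 45038198, plus strand) encodes the partner of p52 in the noncanonical pathway. The deposited table lists other bounds for the 10 genes, for NFKBIA from 35344974 to 35490404, and the positions given here are those of GENCODE. A long noncoding RNA on the plus strand shares exonic bases with RELA in that annotation. Whether reads were counted by strand is not given in the sources used here, so reads of such a pair cannot be told apart.

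RELA had 165 and 172 CPM, counts scaled with TMM to a common total, in control, 164 and 173 in SS and 168 and 153 in SS+NAC. The 3 groups overlapped, and no comparison called the gene on this scale, with log2 fold changes of 0.01 (edgeR adjusted p = 0.965, standard error 0.0772) for SS and -0.07 (edgeR adjusted p = 0.704, standard error 0.0772) for SS+NAC against control. On the scale of log2(TPM + 1) the median of all tested genes was lower by 0.20 in SS than in control and by 0.27 in SS than in SS+NAC. There limma gave RELA log2 fold changes of -0.27 (adjusted p = 0.00615) and -0.26 (adjusted p = 0.00635) in these comparisons, which are -0.07 and 0.01 relative to the median gene.

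NFKB1 had 79.9 and 76.8 CPM in control, 70.4 and 70.0 in SS and 81.1 and 84.5 in SS+NAC. The SS libraries were the lowest and the SS+NAC libraries the highest, with no overlap between groups. The log2 fold change of SS against SS+NAC was -0.24 (edgeR adjusted p = 0.0197, standard error 0.0703), and those of SS and SS+NAC against control were -0.16 (adjusted p = 0.101) and 0.08 (adjusted p = 0.610). The call against SS+NAC was lost in 10 of 15 alternatives. Among them were the length offset, where the value was -0.07 (edgeR adjusted p = 0.475), the offset with the replicate block (-0.07, adjusted p = 0.620), the block alone (-0.24, adjusted p = 0.0569), the compared libraries only (-0.23, adjusted p = 0.0561) and the Wald test of DESeq2 (-0.21, adjusted p = 0.0639). It was also lost without either control library, either SS library or SS+NAC replicate 2, with edgeR adjusted p up to 0.102 and values from -0.27 to -0.21 over the libraries left out. Over all alternatives the adjusted p ran from 0.00204 to 0.620. On TPM limma called SS against control as well (-0.38, adjusted p = 0.00891), which is -0.18 relative to the median gene.

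NFKB2 had 40.9 and 39.9 CPM in control, 53.1 and 47.5 in SS and 46.1 and 47.7 in SS+NAC. Both treated groups lay above control, and they overlapped each other. SS against control gave a log2 fold change of 0.32 (edgeR adjusted p = 0.0105, standard error 0.0812), which was 0.34 with the length offset (edgeR adjusted p = 0.0235). SS+NAC against control gave 0.22 (edgeR adjusted p = 0.227, standard error 0.0812). The SS call was lost in 5 of 15 alternatives. With limma on TPM the value was 0.13 (adjusted p = 0.354), which is 0.33 relative to the median gene. The call was also lost without control replicate 1 (0.33), control replicate 2 (0.33) or SS replicate 1 (0.23). Over all alternatives the values ran from 0.13 to 0.39.

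RELB had 17.7 and 15.4 CPM in control, 27.7 and 22.5 in SS and 23.0 and 27.8 in SS+NAC. Every treated library was above both control libraries, while SS and SS+NAC covered nearly the same range. The log2 fold changes against control were 0.61 in SS (edgeR adjusted p = 0.00502, standard error 0.133) and 0.62 in SS+NAC (edgeR adjusted p = 0.0430, standard error 0.133), and SS against SS+NAC gave -0.02 (edgeR adjusted p = 0.934, standard error 0.126), with a sign that changed between alternatives. The length offset took the 2 values against control to 0.49 and 0.61, at edgeR adjusted p of 0.0563 and 0.0564, and over all alternatives the adjusted p ran from 0.000166 to 0.179 and from 0.000939 to 0.301. Without 1 library at a time SS against control stayed called (0.45 to 0.75), whereas the SS+NAC call was lost without control replicate 1 (0.72), control replicate 2 (0.52) or SS+NAC replicate 2 (0.48).

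Promoter sequence was examined because NF-kappaB dimers bind the kappaB motif. The RefSeq windows (GRCh38.p14, 250 bases before to 50 after a start) covered 8 of the 10 genes with 13 windows; RELB and NFKBIE had no entry. The kappaB consensus, searched by its degenerate letters on both strands, was found in windows of 6 genes, NFKB1, NFKB2, NFKBIA, NFKBIZ, TNFAIP3 and BIRC3, and in 8 of the 13 windows. Over all promoters 11.3% of 35116 windows held it, and 17.4% of 10885 tested genes had it in at least 1 window. A shorter palindromic form, GGAANTTCC, was chosen after the windows had been looked at. It was found in NFKB1, NFKBIA, NFKBIZ and ICAM1 and in 0.965% of all windows, and in the first 3 it lies inside the consensus match. A match describes letters in the window and is not a site of binding. Of the subunit genes, the stretch of NFKB1 and that of 1 of 2 NFKB2 windows with matches are shown with the matched bases in capitals, for NFKB1 on the plus strand of chr4:102501300-102501329 and for NFKB2 on the plus strand of chr10:102394461-102394519, where the first capitals are 2 overlapping matches. The other NFKB2 window, which is not printed, has matches 176 and 21 bases before its start.
NFKB1: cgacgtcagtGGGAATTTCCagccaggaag
NFKB2: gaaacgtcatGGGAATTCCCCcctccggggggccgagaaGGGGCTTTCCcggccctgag

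Of the IkappaB genes, NFKBIA (gene ID 4792, chromosome 14 from 35401511 to 35404749, minus strand) encodes IkappaBalpha, the inhibitor that NF-kappaB induces to end its own activity. It had 1245 and 1424 expected counts in control, 3610 and 2510 in SS and 1834 and 2702 in SS+NAC. In CPM these are 69.2 and 64.4, 157 and 115, and 75.9 and 112. The SS libraries were above all others and the SS+NAC libraries above control, but SS+NAC replicate 2 reached nearly the lower SS library while SS+NAC replicate 1 lay close to control. The mean was 66.8 ± 3.39 CPM in control, 136 ± 30.2 in SS and 94.1 ± 25.7 in SS+NAC (SD, n = 2).

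Without the length offset, NFKBIA changed more between SS and control than any other of the 10 genes, by 2.04-fold, a log2 fold change of 1.03 (edgeR adjusted p = 0.00146, standard error 0.177). It was called under all 15 alternatives, with values between 0.72 and 1.23 and adjusted p between 7.41e-07 and 0.0416. The length offset gave 0.75 (edgeR adjusted p = 0.0394, standard error 0.193), beside 0.76 for ICAM1 and 0.70 for TNFAIP3, so that NFKBIA did not lead on that scale. Against SS+NAC, SS was higher by 0.53 (edgeR adjusted p = 0.0301, standard error 0.173), a call that was lost in 6 of 15 alternatives. Among these were the length offset (0.27, edgeR adjusted p = 0.364), the Wald test of DESeq2 (0.56, adjusted p = 0.114), limma on TPM (0.20, adjusted p = 0.461) and the fits without SS replicate 1 (0.29, adjusted p = 0.256) and without SS+NAC replicate 1 (0.28, adjusted p = 0.0854), and the adjusted p ran from 0.000145 to 0.461 over all alternatives, with the lowest without SS+NAC replicate 2, where the value was 0.84. SS+NAC against control gave 0.49 (edgeR adjusted p = 0.206, standard error 0.177), and it was 0.75 (adjusted p = 0.000966) without SS+NAC replicate 1 and 0.19 (adjusted p = 0.577) without SS+NAC replicate 2. The whole promoter window of NFKBIA is shown because the gene was called between SS and control under every alternative. It is read along the minus strand of chr14:35404700-35404999, with the consensus match, 81 bases before the start, in capitals.
NFKBIA: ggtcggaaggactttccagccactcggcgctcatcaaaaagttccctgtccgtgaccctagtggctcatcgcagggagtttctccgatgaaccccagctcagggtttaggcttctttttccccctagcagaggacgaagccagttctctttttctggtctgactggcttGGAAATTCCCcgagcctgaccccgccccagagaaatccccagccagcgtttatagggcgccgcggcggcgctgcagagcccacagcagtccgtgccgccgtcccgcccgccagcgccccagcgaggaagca

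NFKBIE (gene ID 4794, chromosome 6 from 44258166 to 44265788, minus strand) encodes IkappaBepsilon, another cytoplasmic inhibitor. Its CPM were 17.3 and 16.8 in control, 23.0 and 20.4 in SS and 18.7 and 18.9 in SS+NAC. The groups stood in the order control, SS+NAC, SS without overlap, but the steps were small. SS against control gave a log2 fold change of 0.35 (edgeR adjusted p = 0.0162, standard error 0.0973), SS+NAC against control 0.14 (adjusted p = 0.503) and SS against SS+NAC 0.21 (adjusted p = 0.105). The SS call was lost in 7 of 15 alternatives. Among them were the length offset (0.29, edgeR adjusted p = 0.0878), the Wald test of DESeq2 (0.35, adjusted p = 0.0515) and limma on TPM (0.06, adjusted p = 0.721). The TPM value is 0.26 relative to the median gene. The call was also lost without control replicate 1 (0.37), control replicate 2 (0.35) or SS replicate 1 (0.26). Over all alternatives its adjusted p ran from 0.00641 to 0.721.

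NFKBIZ (gene ID 64332, chromosome 3 from 101827991 to 101861022, plus strand) encodes IkappaBzeta, a nuclear protein that acts with NF-kappaB at a subset of its targets. It had 46.5 and 39.3 CPM in control, 52.6 and 40.4 in SS and 59.1 and 87.0 in SS+NAC. Control and SS overlapped, and both SS+NAC libraries were higher than the other 4. SS was lower than SS+NAC by a log2 fold change of -0.65 (edgeR adjusted p = 0.0116, standard error 0.172), which the length offset changed to -0.48 (edgeR adjusted p = 0.0831) and the removal of SS replicate 2 to -0.47 (edgeR adjusted p = 0.114), and the Wald test of DESeq2 gave -0.63 (adjusted p = 0.0639). Without SS+NAC replicate 1 the value was -0.90 and without SS+NAC replicate 2 -0.35 (edgeR adjusted p = 1.23e-05 and 0.0361). SS+NAC against control gave 0.77 (edgeR adjusted p = 0.0534, standard error 0.174), with adjusted p from 1.74e-05 without SS+NAC replicate 1, where the value was 1.02, to 0.272 without control replicate 2 (0.66), and with a value of 0.47 without SS+NAC replicate 2. SS against control gave 0.12 (adjusted p = 0.618). Its expected counts lay within 0.005 of a whole number in 1 of the 6 libraries. The stretch with both motifs, on the plus strand of chr3:101827757-101827786, holds the same 10 matched bases as the stretch of NFKB1.
NFKBIZ: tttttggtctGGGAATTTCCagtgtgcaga

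The feedback regulators had few reads. TNFAIP3 (gene ID 7128, chromosome 6 from 137867188 to 137883312, plus strand) encodes A20, a ubiquitin-editing enzyme that restrains signalling to IKK. It had 134 and 127 expected counts in control, 261 and 142 in SS and 200 and 311 in SS+NAC, or 7.45 and 5.74, 11.4 and 6.49, and 8.28 and 12.9 CPM. SS overlapped control, since SS replicate 2 lay between the control libraries, and both SS+NAC libraries were above control. The log2 fold changes against control were 0.45 (edgeR adjusted p = 0.227, standard error 0.279) in SS and 0.69 (edgeR adjusted p = 0.249, standard error 0.273) in SS+NAC. Without SS replicate 1 the SS value was -0.02, and without SS+NAC replicate 1 the SS+NAC value was 0.98 (edgeR adjusted p = 0.0113), while without SS+NAC replicate 2 it was 0.34 (edgeR adjusted p = 0.583). An antisense RNA shares exonic bases with the gene.

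BIRC3 (gene ID 330, chromosome 11 from 102317450 to 102339403, plus strand) encodes cIAP2, a ubiquitin ligase of the TNF receptor complex. With 57 and 82 expected counts in control, 88 and 59 in SS and 80 and 146 in SS+NAC it was the least covered of the 10 genes. The CPM were 3.17 and 3.71, 3.84 and 2.69, and 3.31 and 6.06, and all 3 groups overlapped. The log2 fold changes were -0.08 (edgeR adjusted p = 0.861, standard error 0.297) for SS and 0.44 (edgeR adjusted p = 0.468, standard error 0.282) for SS+NAC against control, and -0.52 (edgeR adjusted p = 0.163, standard error 0.279) for SS against SS+NAC. Without SS+NAC replicate 1 the last 2 values were 0.81 (edgeR adjusted p = 0.0381) and -0.89 (edgeR adjusted p = 0.00378), and without SS+NAC replicate 2 they were -0.06 and -0.02 (edgeR adjusted p = 0.953 and 0.967). The standard error for SS against control, 0.297, was close to the whole log2 fold change of NFKB2 (0.32).

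ICAM1 (gene ID 3383, chromosome 19 from 10270835 to 10286615, plus strand) encodes an adhesion molecule that binds leukocyte integrins. It had 30.9 and 26.7 CPM in control, 52.8 and 39.7 in SS and 43.4 and 59.2 in SS+NAC. All 4 treated libraries were above both control libraries, and the 2 treated groups overlapped. SS was 1.61-fold and SS+NAC 1.78-fold higher than control, with log2 fold changes of 0.69 (edgeR adjusted p = 0.00739, standard error 0.163) and 0.84 (edgeR adjusted p = 0.0281, standard error 0.162), and SS against SS+NAC gave -0.15 (edgeR adjusted p = 0.480, standard error 0.156). The last value ran from -0.37 to 0.09 over the libraries left out and was called without SS+NAC replicate 1 (-0.35, edgeR adjusted p = 0.0259). The length offset gave values against control of 0.76 (adjusted p = 0.0188) and 0.83 (adjusted p = 0.0308), so that ICAM1 was the 1 gene of the 10 called against control in both treated groups with and without the offset. The SS call was lost without SS replicate 1 (0.47) and with limma on TPM (0.38, adjusted p = 0.165), which is 0.58 relative to the median gene. The SS+NAC call was lost without control replicate 1 (0.94) or control replicate 2 (0.73) and with limma on TPM (0.84, adjusted p = 0.102). Over all alternatives the adjusted p ran from 5.71e-05 to 0.165 in SS and from 2.78e-05 to 0.142 in SS+NAC. Its expected counts lay within 0.005 of a whole number in 1 of the 6 libraries, as against 2 for TNFAIP3, 4 for BIRC3 and all 6 for the subunits, NFKBIA and NFKBIE. In the annotation 2 antisense RNAs share exonic bases with the gene. Its promoter window, on the plus strand of chr19:10270870-10271169, is shown because ICAM1 was called in both comparisons with control; the capitals mark the short motif, 186 bases before the start, and the consensus letters are not in this window.
ICAM1: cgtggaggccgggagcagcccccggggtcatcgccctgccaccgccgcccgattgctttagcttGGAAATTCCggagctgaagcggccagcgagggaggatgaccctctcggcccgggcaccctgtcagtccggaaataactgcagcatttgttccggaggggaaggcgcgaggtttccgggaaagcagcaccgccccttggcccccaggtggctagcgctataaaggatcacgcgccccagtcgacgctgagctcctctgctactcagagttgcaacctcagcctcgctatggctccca

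**Figure D2:**
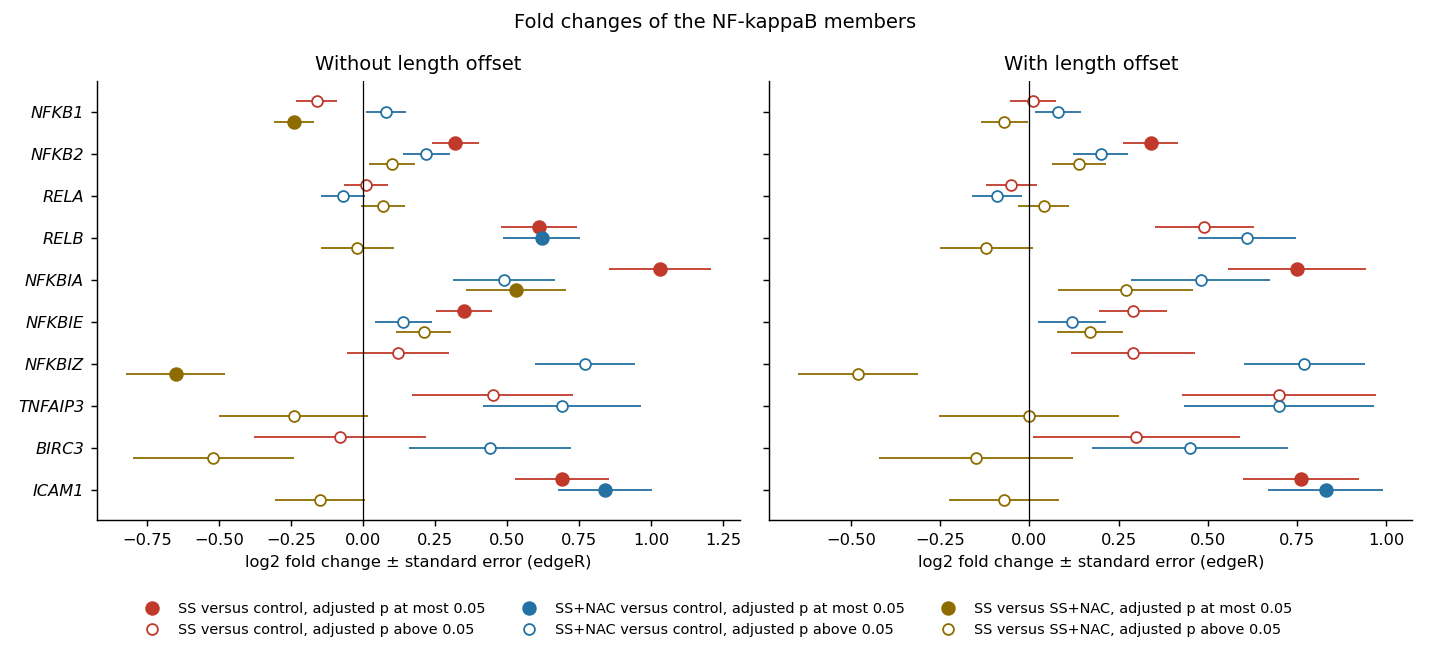
Log2 fold changes of the 10 genes (horizontal axis) with edgeR standard errors, without (left) and with (right) the length offset, for SS against control, SS+NAC against control and SS against SS+NAC; filled points have an adjusted p of at most 0.05. Without the offset 5, 2 and 3 points are filled in these comparisons, and with it 3, 1 and 0.

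The length offset was used because fold changes of SS moved with the effective length of a gene. Genes are not independent observations, and over the 14005 tested Spearman's rho for length and log2 fold change was -0.68 for SS against control, -0.64 for SS against SS+NAC and -0.04 for SS+NAC against control. The 10 genes had a median length of 3138 bases, beside 3048 over all tested genes. NFKBIA was the shortest with 1561 bases, and its log2 fold change of SS against control went from 1.03 to 0.75 with the offset. BIRC3 and TNFAIP3 were the longest with 6184 and 4694 bases, and their values went up, from -0.08 to 0.30 and from 0.45 to 0.70, without a call. The medians of the 10 genes with the offset were 0.32 for SS against control, 0.47 for SS+NAC against control and -0.03 for SS against SS+NAC. What underlies the relation to length was not tested.

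**Figure D3:**
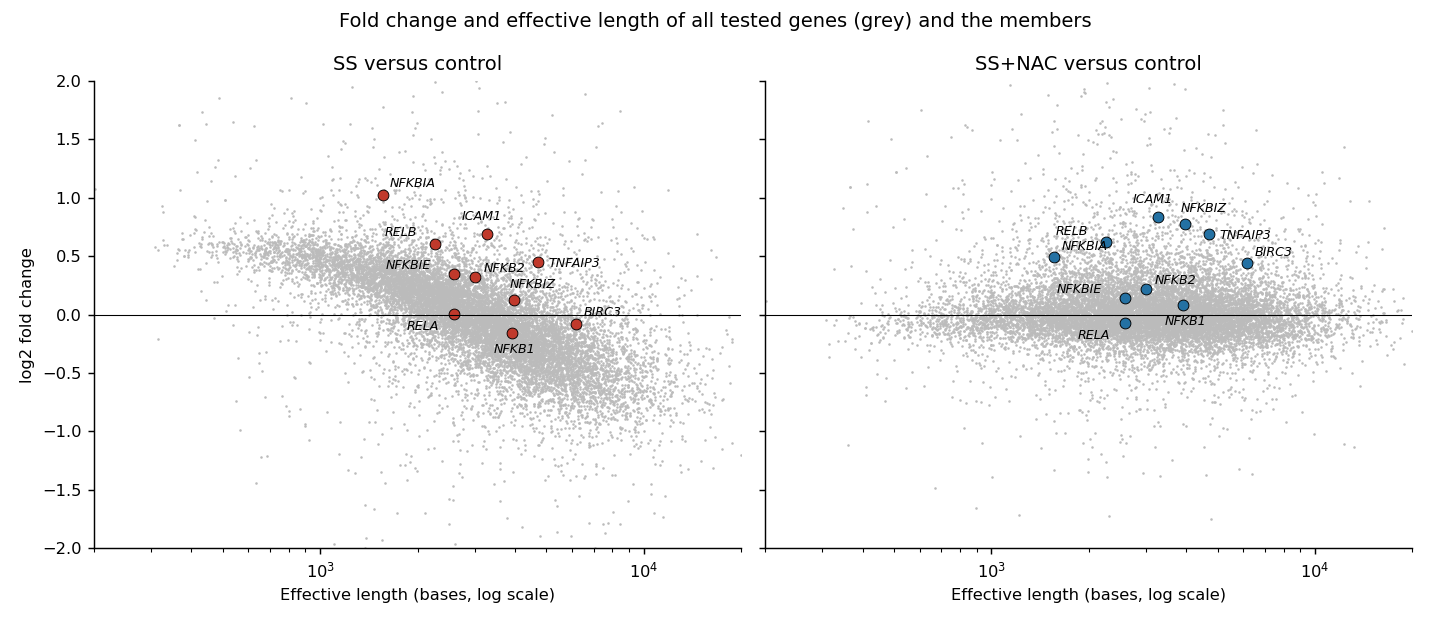
Log2 fold change (vertical axis) against effective length in bases (horizontal axis, log scale) for SS against control and SS+NAC against control; grey points are tested genes and coloured points the 10 NF-kappaB genes. In the left panel long genes lie lower than short genes. NFKBIA, ICAM1 and NFKB2, the 3 genes called with the length offset, lie there above most genes of their length. So do RELB and TNFAIP3, which were not called with the offset. NFKBIE, NFKBIZ and BIRC3 had smaller values with the offset, 0.29, 0.29 and 0.30 (not drawn). In the left and right panels 59 and 44 genes lie outside the axes.

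The libraries of a group differed from each other in these genes. In SS, replicate 1 was higher than replicate 2 for 9 of the 10 genes, with a median difference of 0.34 in log2 CPM, whereas over all tested genes 46.1% were higher in replicate 1 and the median was -0.02. In SS+NAC, replicate 2 was higher for 9 of the 10, with a median of -0.36 for replicate 1 minus replicate 2, beside 0.01 over all genes. RELA was the exception in both groups. The control libraries differed less, with a median of 0.08. Replicate 1 was higher there for 8 of the 10 genes, beside 50.4% of all tested genes. SS+NAC replicate 2 held the highest value for 6 of the 10 genes, SS replicate 1 for 3, and control replicate 2 the lowest for 7. These counts were not made over all tested genes, so they only describe the 10. Among the markers, the leukocyte sum, at a few TPM, was also higher in SS replicate 1 and SS+NAC replicate 2 than in their partners. The same held for the mesenchymal markers FN1 and CDH2. The mesenchymal marker VIM went the other way, with 6500 and 6620 TPM in SS and 6030 and 5740 in SS+NAC. So did KRT8, with 1270 and 1400 TPM in SS and 1160 and 977 in SS+NAC, and KRT18, with 987 and 1100 in SS and 866 and 731 in SS+NAC. What underlies these differences was not tested.

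**Figure D4:**
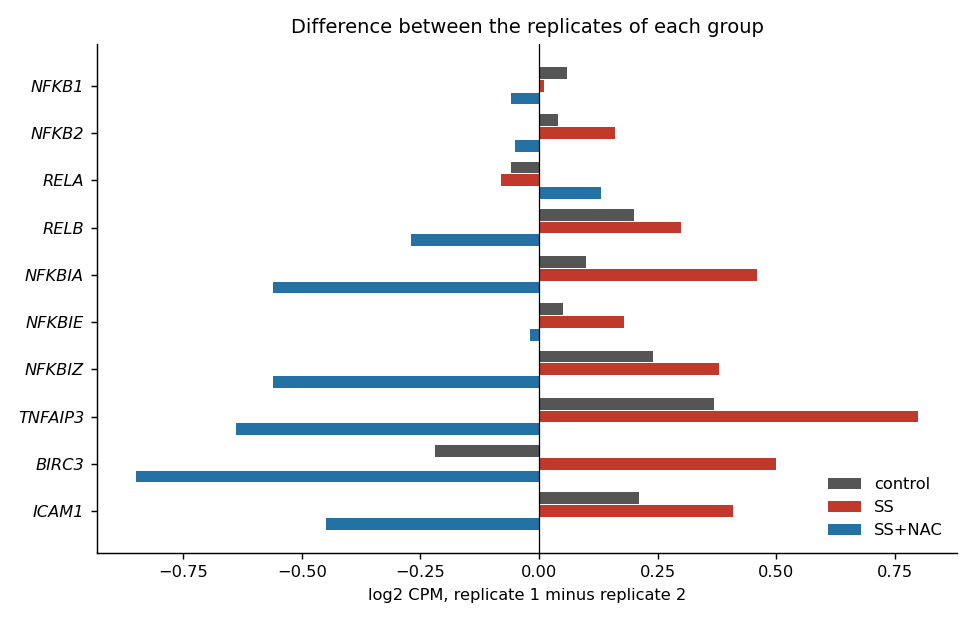
Difference in log2 CPM between replicate 1 and replicate 2 (horizontal axis) of control, SS and SS+NAC for each of the 10 genes. Bars of SS point to replicate 1 and bars of SS+NAC to replicate 2 for 9 genes each, up to 0.80 for TNFAIP3 in SS and -0.85 for BIRC3 in SS+NAC.

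The genes whose profile over the 6 libraries was most like that of NFKBIA were sought among 9526 other genes that averaged 10 CPM or more, by the root mean square difference of centred log2 CPM. They were DHRS3 (0.0808), ZFP36 (0.110), PNRC1 (0.138), IFITM1 (0.160) and CDKN1A (0.168). DHRS3, a retinal reductase, had 10.0 and 10.2 CPM in control, 22.0 and 16.1 in SS and 10.1 and 15.2 in SS+NAC. ZFP36, which promotes decay of AU-rich mRNAs, had 16.1 and 15.1, 33.8 and 25.2, and 19.5 and 22.7 CPM. CDKN1A, the cell cycle inhibitor p21, had 14.2 and 14.5, 31.7 and 24.8 CPM in control and SS, and 17.6 ± 0.596 CPM in SS+NAC (mean and SD, n = 2). PNRC1, a nuclear receptor coactivator, had 16.5 ± 2.40 CPM in control, 27.6 ± 3.38 in SS and 21.1 ± 6.20 in SS+NAC, and IFITM1, an interferon-induced membrane protein, had 10.6 ± 1.18, 18.7 ± 2.28 and 14.2 ± 1.09 CPM. In PNRC1 SS replicate 2 (25.2 CPM) was below SS+NAC replicate 2 (25.5 CPM). The 5 genes were chosen for this profile, so their values are a description.

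Beyond the 10 genes, 94 genes of the pathway were listed by role, of which 91 were tested. In SS against control 23 were higher and 16 lower (25.3% and 17.6%, beside 18.6% and 21.4% of all tested genes), with a median log2 fold change of 0.08. In SS+NAC against control 10 of the 91 were higher and 1 lower (1.36% and 0.657% of all tested genes), with a median of 0.12. In SS against SS+NAC 10 of the 91 were higher and 26 lower (19.6% and 23.1% of all tested genes), with a median of -0.17. The corresponding medians of all tested genes were 0.00, 0.00 and -0.03. After the length offset the counts for SS against control were 4 and 4 (4.40% each, beside 4.19% and 5.03%), those for SS+NAC against control 9 and 2 (1.35% and 0.664% of all tested genes) and those for SS against SS+NAC 4 and 11 (4.40% and 12.1%, beside 7.04% and 7.38%).

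The 5 remaining subunit and IkappaB genes held 2 that were higher and 1, REL, that was lower in SS than in control (18.6% and 21.4% of all tested genes). REL, which encodes c-Rel, had 5.22 and 5.61 CPM in control, 3.14 and 2.79 in SS and 6.09 and 8.89 in SS+NAC. The groups did not overlap, and SS was lower than control by a log2 fold change of -0.87 (edgeR adjusted p = 0.00880, standard error 0.214) and lower than SS+NAC by -1.33 (edgeR adjusted p = 0.000746, standard error 0.203). The length offset gave -0.42 (edgeR adjusted p = 0.242) and -0.90 (adjusted p = 0.0159). BCL3, a nuclear IkappaB protein that binds p50 and p52, was higher in SS than in control by 0.55 (edgeR adjusted p = 0.0224) and NFKBIB, encoding IkappaBbeta, by 0.39 (edgeR adjusted p = 0.0136), and with the offset the values were 0.35 (adjusted p = 0.248) and -0.01 (adjusted p = 0.948). In SS+NAC against control BCL3 gave 0.72 (edgeR adjusted p = 0.056), and 0.70 with the offset (edgeR adjusted p = 0.0798). NFKBIB was higher in SS than in SS+NAC by 0.42 (edgeR adjusted p = 0.00907), which was 0.01 with the offset (edgeR adjusted p = 0.939).

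Of 15 genes of the IKK complex and upstream kinases, 1 was higher and 5 were lower in SS than in control (6.67% and 33.3%, beside 18.6% and 21.4% of all tested genes), with a median of -0.20. The length offset left 1 higher and 2 lower (6.67% and 13.3%, beside 4.19% and 5.03%) and a median of -0.01. Between SS and SS+NAC 6 were lower in SS and none higher (23.1% and 19.6% of all tested genes), and with the offset 3 were lower and 1 higher (7.38% and 7.04%). CHUK, the catalytic subunit IKKalpha, had 35.2 and 32.5 CPM in control, 24.2 and 23.3 in SS and 32.2 and 33.9 in SS+NAC. Both SS libraries were below the other 4, and the log2 fold changes of SS were -0.51 against control (edgeR adjusted p = 0.00119, standard error 0.0840) and -0.47 against SS+NAC (adjusted p = 0.00146), and -0.41 and -0.37 with the length offset (adjusted p = 0.0119 and 0.0136). The other catalytic subunit IKBKB gave -0.11 (adjusted p = 0.412) and the regulatory subunit IKBKG 0.27 (adjusted p = 0.0735) for SS against control. TAB2, an adaptor of the kinase TAK1, was lower in SS by -0.58 (edgeR adjusted p = 0.000439; -0.38 with the offset, adjusted p = 0.0102), and its relative TAB3 by -0.60 (adjusted p = 0.00628; -0.19 with the offset, adjusted p = 0.407). MAP3K8, the kinase TPL2, was the gene that was higher, by 0.74 (edgeR adjusted p = 0.0104, standard error 0.188), and by 0.87 with the offset (adjusted p = 0.0180).

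Of 21 receptors and adaptors, 2 were higher and 5 lower in SS than in control (9.52% and 23.8%, beside 18.6% and 21.4% of all tested genes). With the offset none was higher and 2 were lower (9.52%, beside 5.03%). In this list 1 was called, as lower, in SS+NAC against control (4.76%, beside 0.657%). That gene was MALT1, the paracaspase of the CARD-BCL10-MALT1 complex, with 43.5 and 41.5 CPM in control, 28.2 and 27.4 in SS and 32.8 and 34.0 in SS+NAC. Its groups did not overlap, and the log2 fold changes against control were -0.61 in SS (edgeR adjusted p = 0.000366, standard error 0.0778) and -0.35 in SS+NAC (edgeR adjusted p = 0.0490, standard error 0.0764), which were -0.27 (adjusted p = 0.0449) and -0.33 (adjusted p = 0.0409) with the offset. BIRC2, encoding cIAP1, gave -0.56 in SS (edgeR adjusted p = 0.000705; -0.48 with the offset, adjusted p = 0.00569). TLR4 and TRAF3, a receptor for lipopolysaccharide and an adaptor that restrains the noncanonical pathway, gave -0.61 (adjusted p = 0.0331) and -0.46 (adjusted p = 0.000840), and with the offset -0.26 (adjusted p = 0.457) and -0.01 (adjusted p = 0.920).

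Of 19 ubiquitin regulators and brakes, 5 were higher and 5 lower in SS than in control (26.3% each, beside 18.6% and 21.4% of all tested genes). The 4 largest changes were those of the ubiquitin ligase ITCH (-0.46, edgeR adjusted p = 0.00165), the RNase ZC3H12A (0.46, adjusted p = 0.0396), the deubiquitinase OTUD7B (-0.46, adjusted p = 0.00134) and COMMD1 (0.45, adjusted p = 0.00481), which encodes an NF-kappaB repressor. With the length offset edgeR called 0 of the 19 (4.19% of all tested genes as higher and 5.03% as lower), with 3 at an unadjusted p under 0.05, and gave these 4 -0.10, 0.43, -0.06 and -0.05 (edgeR adjusted p from 0.123 to 0.772). ZC3H12A was also the 1 gene of this list called in SS+NAC against control (5.26%, beside 1.36% as higher), with a log2 fold change of 0.86 (edgeR adjusted p = 0.0210, standard error 0.156) and 0.84 with the offset (adjusted p = 0.0265).

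The list of 34 other target genes, 31 of them tested, held 13 genes that were higher in SS than in control (41.9%, beside 18.6% of all tested genes) and none that was called as lower (21.4% of all tested genes), with a median log2 fold change of 0.46. In SS+NAC against control 9 of the 31 were higher (1.36% of all tested genes), with a median of 0.86, and in SS against SS+NAC 4 were higher and 8 lower (12.9% and 25.8%, beside 19.6% and 23.1%), with a median of -0.22. In SS 24 of the 31 were higher in replicate 1 (median difference 0.32 in log2 CPM), and in SS+NAC 22 were higher in replicate 2 (median -0.37 for replicate 1 minus replicate 2). CXCL8, a neutrophil chemokine, had 19.3 and 11.8 CPM in control, 72.3 and 33.1 in SS and 65.6 and 197 in SS+NAC. All treated libraries were above control and the treated groups overlapped, with log2 fold changes of 1.78 in SS (edgeR adjusted p = 0.0179, standard error 0.508) and 3.09 in SS+NAC (edgeR adjusted p = 0.0122, standard error 0.504). CXCL8 was called as lower in SS than in SS+NAC (-1.31, edgeR adjusted p = 0.0355), a call that the offset ended (-1.57, edgeR adjusted p = 0.0502). CXCL2, a related chemokine, had 13.8 and 11.1, 45.5 and 22.9, and 55.7 and 94.9 CPM. Its groups did not overlap, and the values against control were 1.47 in SS (edgeR adjusted p = 0.00541, standard error 0.328) and 2.60 in SS+NAC (edgeR adjusted p = 0.00209, standard error 0.319), with SS lower than SS+NAC by -1.13 (edgeR adjusted p = 0.00880, standard error 0.283). The cytokine IL6 had 2.39 and 2.67 CPM in control, 14.4 and 5.12 in SS and 7.45 and 22.5 in SS+NAC, and gave 1.95 (edgeR adjusted p = 0.0259, standard error 0.605) and 2.56 (edgeR adjusted p = 0.0552, standard error 0.581) against control. MMP9, a gelatinase, had few reads, with 10 and 11 expected counts in control, 32 and 24 in SS and 25 and 22 in SS+NAC. Its CPM were 0.556 and 0.498 in control, 1.39 and 1.10 in SS and 1.04 and 0.914 in SS+NAC. Against control it gave 1.24 in SS (edgeR adjusted p = 0.0164) and 0.89 in SS+NAC (edgeR adjusted p = 0.260). SS against SS+NAC gave 0.35 (edgeR adjusted p = 0.376). After the offset 3 genes of this list were called as higher in SS than in control (9.68%, beside 4.19% of all tested genes), and CXCL8 was at 1.51 (edgeR adjusted p = 0.114), CXCL2 at 1.10 (adjusted p = 0.0937), IL6 at 1.60 (adjusted p = 0.159) and MMP9 at 1.14 (adjusted p = 0.0716). In SS+NAC against control the offset gave 8 higher and 1 lower (25.8% and 3.23%, beside 1.35% and 0.664%), and CXCL8 and CXCL2 were called with the offset too (adjusted p = 0.0166 and 0.00524).

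**Figure D5:**
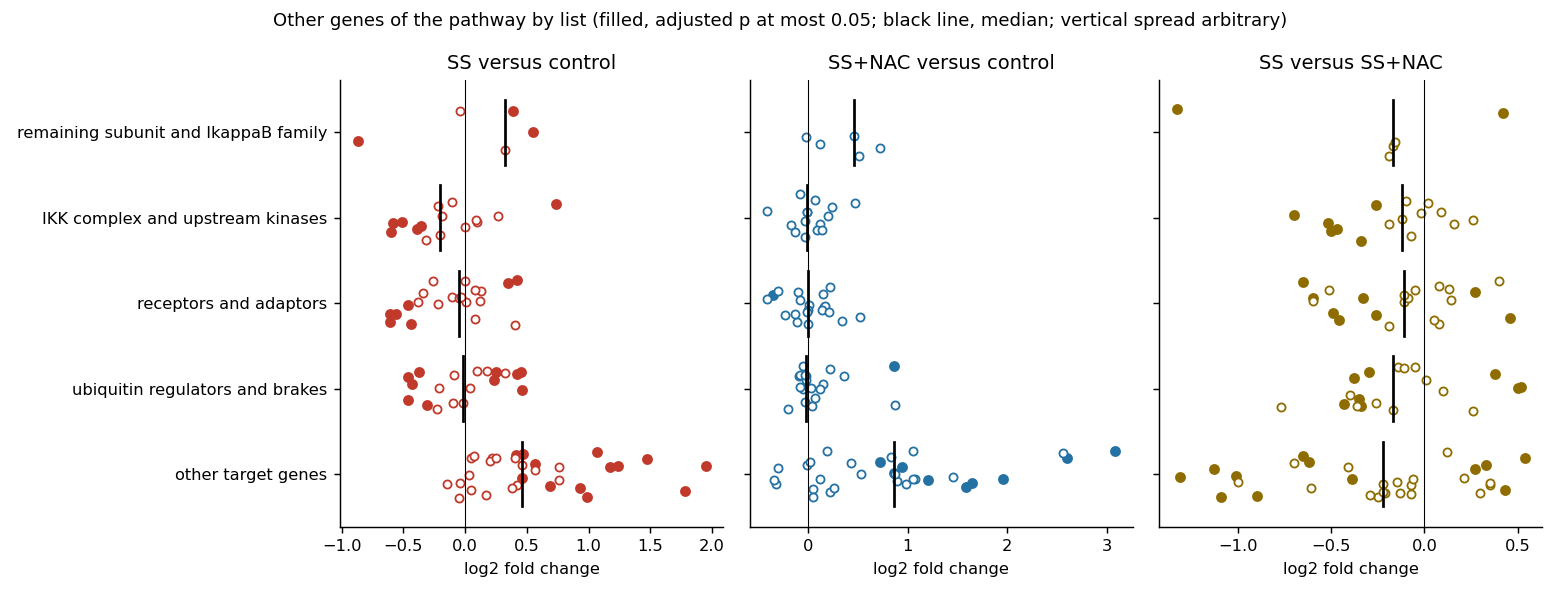
Log2 fold change (horizontal axis) of each tested gene of the 5 other lists of the pathway in SS against control, SS+NAC against control and SS against SS+NAC; filled points passed the 0.05 limit on edgeR's adjusted p without the length offset, and black lines are medians. The other target genes reach 1.95 in SS and 3.09 in SS+NAC against control, and the list of IKK and upstream kinases has a median of -0.20 in SS against control, which is -0.01 with the offset (not drawn).

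A broader list was added after the values had been seen, the hallmark genes of TNF signalling via NF-kappaB as annotated in the deposited table, and it serves as a description. It holds 197 genes, 188 of them outside the 10, and 178 of the latter were tested. Between SS and control 53 were higher (29.8%) and 17 lower (9.55%), beside 18.6% and 21.4% of all tested genes, and the median log2 fold change was 0.20. Between SS+NAC and control 36 were higher (20.2%) and 1 lower, beside 1.36% and 0.657% of all tested genes, with a median of 0.25. Between SS and SS+NAC 28 were higher and 54 lower (15.7% and 30.3%, beside 19.6% and 23.1%), with a median of -0.11, and with the length offset 18 and 31 (beside 7.04% and 7.38%). Between SS and control the length offset gave counts of 29 higher and 3 lower, beside 4.19% and 5.03% of all tested genes, and between SS+NAC and control 35 higher and 2 lower, beside 1.35% and 0.664%. In SS 133 of the 178 were higher in replicate 1, and in SS+NAC 122 were higher in replicate 2. Of the 178, 141 are in none of the other lists, and between SS and control 39 of these were higher and 15 lower, between SS+NAC and control 28 and 1, and between SS and SS+NAC 25 and 45.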

How the data were processed

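KHM-5M cells were sequenced in 6 libraries. The authors captured polyadenylated RNA, made cDNA from random primers and sequenced single-end reads, which they filtered with SOAPnuke and mapped with HISAT2 2.0.4, and the submitters' notes also name Bowtie2 2.2.5. The deposited expected counts were estimated by the authors with RSEM 1.2.12. The deposited TPM values, levels per transcript length and depth, were made by the authors with the same program. The deposited FPKM values, likewise made by the authors with RSEM, served only to derive effective lengths. The table's columns of fold change, p and q hold the authors' own DESeq2 comparisons and were not used.

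Counts were rounded, filtered with filterByExpr, scaled with TMM (factors 0.92 to 1.06) and fitted over all 6 libraries with the quasi-likelihood test of edgeR 4.0.16 in R 4.3.3, with Benjamini-Hochberg adjustment over 14005 genes and 0.05 as the limit of the adjusted p for a call. The biological coefficient of variation was 6.74%. Replicates differed by more than sampling noise (chi-square per degree of freedom 3.05 in control, 7.12 in SS and 11.7 in SS+NAC). Standard errors were derived from the F statistic. The length offset was a lowess fit (span 0.3) of each library's log2 CPM deviation on log effective length. The fit was tested on simulated data of 13875 genes for SS against control, with 200 genes changed 2-fold. Of these 100% were recovered, beside 11 false calls, in the fit without the offset. The data behind these figures had no length trend, the same spread in all genes and groups, and changes only in better covered genes. The figures therefore do not carry over to the SS libraries, where fold changes moved with length, and smaller changes were not simulated. Alternatives used DESeq2 1.42.0, limma 3.58.1 on log2(TPM + 1), no filter or a stricter one, fits of 2 groups alone, a block for replicate numbers, the offset, and each library left out. Promoter sequences came from RefSeq (GRCh38.p14) and gene positions from GENCODE release 29. Figures were drawn with matplotlib 3.10.9.

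Named genes were all 10 members; in each pathway list, of the genes called in any comparison that averaged 1 CPM or more in some group, the 4 with the largest absolute log2 fold change of SS against control; REL, IKBKB, IKBKG and CHUK always; and the 5 genes averaging 10 CPM or more whose profile was most like that of the member with the largest change. The genes and lists were chosen with earlier results of these data known.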

Additional observations from a re-analysis of the deposited data

How the results depend on the processing

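Of 450 values of single genes under the alternatives, 362 kept their direction and their side of the threshold, 48 kept the direction and lost the call, 9 gained one and 31 changed sign. With the length offset the members called were 3 in SS against control, 1 in SS+NAC against control and 0 in SS against SS+NAC, and of all genes 1292 and 2019 were called in the first and the last. The replicate block with the length offset gave 2, 1 and 0 members, and 851 and 1366 genes. The replicate block alone gave 5, 3 and 2 members, and 4857, 211 and 5136 genes; the differences between replicates 1 and 2 correlated across genes at 0.113 for control with SS, -0.105 for control with SS+NAC and -0.175 for SS with SS+NAC. Whether libraries of equal number belong together is not given in the labels and was not settled by these values. A pairing with the SS+NAC numbers crossed, chosen after seeing the data, gave 7, 5 and 4 members and 7151, 1475 and 7286 genes. limma on log2(TPM + 1) gave 3 (NFKBIA higher, NFKB1 and RELA lower), 0 and 3 members (NFKB1, RELA and NFKBIZ, all lower), with 5952, 140 and 7114 genes, and 5 members at an unadjusted p under 0.05 in SS+NAC against control. No filter on low counts and the compared libraries only each left 1 member in SS+NAC against control. Beside it stood 169 and 158 genes as higher and 60 and 48 as lower. The Wald test of DESeq2 called 0 members in SS against SS+NAC, beside 2504 genes as higher and 2362 as lower. Leaving out 1 library gave 2 to 5, 0 to 6 and 1 to 4 members, and 3118 to 6579, 98 to 1086 and 3250 to 6339 genes; a lone library was then assumed to vary like the other groups. The 6 genes with a kappaB consensus match were also 6 with only the bases before the start.

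Sign changes fell on values that were not called in the fit above. In SS against control, RELA went from 0.01 to 0.00 with no filter or the compared libraries only, to -0.05 with the length offset, with or without the block, and to -0.27 on TPM; NFKB1 went to 0.01 with the offset, with or without the block; BIRC3 to 0.30 with the offset and 0.32 with the block added; and NFKBIZ to -0.17 on TPM. In SS against SS+NAC, RELB went to 0.01 with DESeq2 size factors, the DESeq2 Wald test or at least 10 counts in every library, TNFAIP3 to 0.00 with the offset, and NFKB2, RELA and NFKBIE to -0.14, -0.26 and -0.12 on TPM. Ranges with 1 library left out, where a sign changed, were for SS against control -0.04 to 0.06 (RELA), -0.36 to 0.15 (BIRC3), -0.08 to 0.30 (NFKBIZ) and -0.02 to 0.79 (TNFAIP3), for SS+NAC against control -0.06 to 0.81 (BIRC3), and for SS against SS+NAC -0.17 to 0.12 (RELB), -0.71 to 0.11 (TNFAIP3) and -0.37 to 0.09 (ICAM1). The cause was not tested. Single libraries were left out for the 10 genes and the counts, and not for the genes of the other lists. BIRC3 and TNFAIP3 had the fewest counts, 57 to 146 and 127 to 311 per library.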
